A study of Mus musculus with 6 samples.

Results

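The circadian clock genes *Per1*, *Per2*, *Per3*, *Cry1*, *Cry2*, *Nr1d1*, *Nr1d2*, *Dbp*, *Tef* and *Arntl* were followed across the stages of an EMT/MET model in EpH4, a line of mouse mammary epithelial cells that the authors call near-normal. These 10 genes, out of 17428 in the deposited table, were chosen by name as parts of the clock, with earlier results of the same 6 libraries known. No threshold on their values was applied, but because those results were known, their differences between stages are given as a description, without p-values, and support nothing by themselves. The E cells were EpH4 cells in their normal medium with serum and insulin, the M cells were the same line after 7 days with TGFβ1 in that medium, and the RE cells had their TGFβ1 medium exchanged for normal medium for 4 further days. Each stage is represented by the whole-transcriptome libraries of 2 biological replicates. The labels name no genetic change between the stages, and all of them come from a single line. The hour of harvest and the time since the last change of medium are not given in the sources used here, and every stage was sampled at a single time, so that a shift in clock phase and a shift in mean level cannot be told apart.

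The mammalian clock is a feedback loop of transcription. BMAL1, the product of *Arntl*, pairs with CLOCK and binds E-box sequences to activate the *Per*, *Cry* and *Nr1d* genes, and the PER and CRY proteins return to the nucleus to repress that pair. The *Nr1d1* and *Nr1d2* products, REV-ERBα and REV-ERBβ, repress *Arntl* through elements that they share with the activating ROR receptors. DBP, TEF and HLF are bZIP factors of the PAR family, which act on D-box sequences downstream of the loop and are opposed by NFIL3. Cultured epithelial cells have such clocks of their own, which can be reset by serum, glucocorticoids and cAMP.

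The values are coverage, in which the sequenced bases of each gene are added up, and are given as ppm of a TMM-normalized library total. The libraries held between 35782513 and 47928557 reads' worth of 50 bases, and the least covered clock gene, *Dbp*, had between 133.8 and 258.4 reads' worth in each library. The E libraries differed more from each other than the others did, since their log2 differences had an SD over genes of 0.558, against 0.318 for M and 0.309 for RE. Of 6 epithelial markers, *Krt19* was close to the limit of detection throughout, and the summed coverage of the list, most of it from *Krt7* and *Krt18*, was 2844 to 3100 ppm in the E, 2857 to 2895 in the M and 1121 to 1250 in the RE libraries. *Epcam* was called lower in M than in E (−1.26), and *Epcam*, *Krt7* and *Krt18* were called lower in RE than in E (−1.23, −1.95 and −1.34). *Krt7* and *Krt8* were called lower in RE than in M (−2.12 and −1.32). *Krt8* was not called in E vs. M (0.67) or in E vs. RE (−0.66). *Cdh1*, the gene of E-cadherin, was not called in any comparison. A list of 10 markers of blood, vessel, fat and muscle cells summed to between 6.14 and 11.05 ppm. Most of that sum came from *Cd68*, a blood-cell marker, at 5.17 to 9.18 ppm in all stages. *Ptprc*, *Cd3e*, *Adipoq* and *Plin1* were at or below 0.0781 ppm in every library. *Cdh5*, a vessel marker, was at 2.33 and 2.07 ppm in the M libraries and at most 0.091 ppm elsewhere. The part of these marker differences in the results described here was not tested. In bulk RNA, fewer cells expressing a gene and less RNA per cell cannot be told apart.

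*Per1* and *Per2* were higher in the RE cells than in either other stage, while *Nr1d1*, *Nr1d2* and *Cry2* were higher in both the M and the RE cells than in the E cells. A gene was called as a DEG when its log2 fold change exceeded 1 in either direction and its adjusted p over all 13893 genes tested was below 0.01 by limma. In E vs. M, 3 of the 10 genes were called higher in the M cells and 0 lower, where 8.58% and 8.39% of all genes tested were called. The RE cells had 2 of the 10 called higher and 0 lower against M, beside 8.08% and 4.79% of all genes. Against E they had 6 called higher and 0 lower, beside 6.2% and 3.17%. The median log2 fold change of the 10 genes was 0.44 between E and M, 0.25 between M and RE and 1.10 between E and RE, beside medians of 0.00, −0.02 and 0.01 over all genes tested. The 3 comparisons share libraries, so the values stand side by side and are not 3 independent results.

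**Figure D1:**
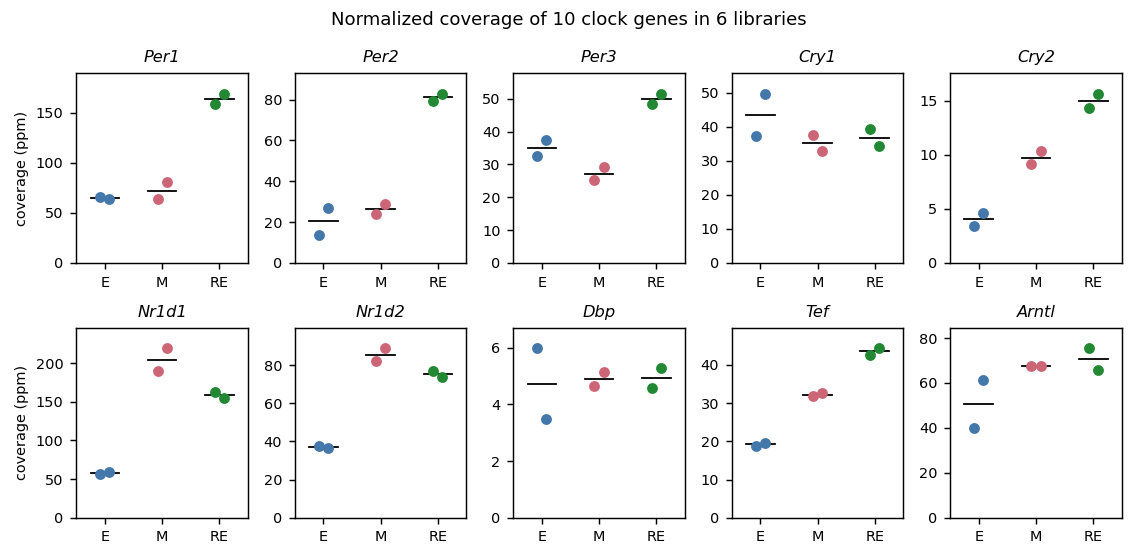
Normalized coverage in ppm (vertical axes, from 0) of each of the 10 clock genes in the 2 libraries of the E, M and RE cells. Points are libraries and bars are means. The RE libraries of *Per1*, *Per2*, *Per3*, *Cry2* and *Tef* lie above all other libraries, while *Nr1d1* and *Nr1d2* are highest in M, and *Cry1* and *Dbp* overlap in all stages.

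Many of these genes are tied to one another through short elements near their starts. The 250 bases before an annotated start are therefore shown for members with contrasting patterns. *Ciart*, a repressor of BMAL1 and CLOCK that was lower in the M and RE cells, is shown with them. Sequences are those of RefSeq on GRCm38.p6, a newer build than the one the authors mapped to, and run 5′ to 3′ in the direction of transcription. Capitals mark every match, on either strand, to the E-box CACGTG, its variant CACGTT, the D-box as TTATGTAA or TTACGTAA, the core of the ROR element TAGGTCA or the CRE TGACGTCA, and no match overlapped another.
Per1, chr11:69098699-69098948, plus strand: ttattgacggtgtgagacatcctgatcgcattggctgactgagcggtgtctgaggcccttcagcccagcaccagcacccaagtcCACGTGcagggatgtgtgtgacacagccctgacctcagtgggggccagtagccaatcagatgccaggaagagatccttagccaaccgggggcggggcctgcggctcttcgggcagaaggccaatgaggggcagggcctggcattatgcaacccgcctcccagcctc
Per3, chr4:151044666-151044915, minus strand: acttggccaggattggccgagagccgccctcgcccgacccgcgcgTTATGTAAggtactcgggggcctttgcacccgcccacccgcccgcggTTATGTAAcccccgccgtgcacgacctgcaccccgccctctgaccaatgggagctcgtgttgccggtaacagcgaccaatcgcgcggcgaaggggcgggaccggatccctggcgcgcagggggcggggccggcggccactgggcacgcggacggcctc
Cry2, chr2:92434070-92434319, minus strand: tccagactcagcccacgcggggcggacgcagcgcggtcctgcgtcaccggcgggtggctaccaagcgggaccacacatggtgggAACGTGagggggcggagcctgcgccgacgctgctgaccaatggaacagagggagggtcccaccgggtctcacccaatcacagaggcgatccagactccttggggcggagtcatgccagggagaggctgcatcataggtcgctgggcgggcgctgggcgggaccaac
Nr1d1, chr11:98775378-98775627, minus strand: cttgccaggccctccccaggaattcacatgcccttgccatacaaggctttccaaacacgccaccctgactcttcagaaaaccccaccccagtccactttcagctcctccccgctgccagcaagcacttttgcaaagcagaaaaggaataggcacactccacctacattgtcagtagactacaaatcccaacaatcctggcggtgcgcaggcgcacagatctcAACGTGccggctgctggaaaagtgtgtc
Tef, chr15:81802423-81802672, plus strand: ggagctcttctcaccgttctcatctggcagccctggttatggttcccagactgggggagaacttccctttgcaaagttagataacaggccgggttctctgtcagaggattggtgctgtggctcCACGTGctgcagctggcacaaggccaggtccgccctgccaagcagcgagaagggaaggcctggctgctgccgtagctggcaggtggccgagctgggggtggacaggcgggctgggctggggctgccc
Ciart, chr3:95882229-95882478, minus strand: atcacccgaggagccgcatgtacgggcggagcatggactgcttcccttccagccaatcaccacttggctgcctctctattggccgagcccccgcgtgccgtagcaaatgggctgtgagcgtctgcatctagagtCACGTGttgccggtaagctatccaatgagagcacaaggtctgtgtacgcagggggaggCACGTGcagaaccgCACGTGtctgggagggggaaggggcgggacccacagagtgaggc

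The *Per1* window shown held an E-box at −166, counted from the first transcribed base to the first base of the motif. *Per3* held D-boxes at −205 and −158, *Cry2* and *Nr1d1* held the E-box variant at −166 and −28, and the *Tef* window shown held an E-box at −127. *Per1* and *Tef* each had a window at another annotated start. It held no match for *Per1* and an E-box at −138 for *Tef*. *Ciart* held E-boxes at −116, −58 and −44. Windows that run on for 50 bases past the start were on hand for 9 of the 10 members, all but *Per2*. The E-box was present in 3 of these (*Per1*, *Cry1* and *Tef*) and in at least 1 window of 8.093% of all 27025 genes with windows. Its variant was present in 3 (*Cry1*, *Cry2* and *Nr1d1*) and 5.439% of all genes, the D-box in *Per3* and 1.232%, the ROR core in *Arntl* and 2.968%, and the CRE in none of the members and 2.031%. Counted over all 32851 windows, of which some genes have several, these shares were 7.15%, 4.685%, 1.056%, 2.606% and 1.79%. *Nr1d2* and *Dbp* held no match. These are matches of letters and not binding measurements, and genes with the same element did not all share a pattern. *Bhlhe41*, a clock gene outside the members, also held an E-box, at −153. With an E-box, *Per1*, *Tef* and *Bhlhe41* were called higher in RE than in E. *Ciart*, with 3 E-boxes, was called lower, and *Cry1* was not called. Of the members with the variant, *Cry2* and *Nr1d1* were called higher in M and in RE than in E, and *Cry1* was not.

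Among the genes for the repressors of the loop, *Per1* coverage was 65.4 and 64.1 ppm in the E libraries, 64.1 and 80.3 ppm in the M libraries and 158 and 169 ppm in the RE libraries. Both RE libraries thus lay far above the other 4, which overlapped. *Per1* was called higher in RE, by 1.34 on the log2 scale against E (standard error 0.15) and by 1.19 against M (standard error 0.15), and was not called in E vs. M (0.15). *Per2* showed the same order at lower coverage, with 13.7 and 27.0 ppm in the E, 23.8 and 28.7 ppm in the M and 79.5 and 83.0 ppm in the RE libraries. Its RE libraries exceeded every other library, and its E libraries were unequal. It was called in E vs. RE (log2 fold change 2.08, standard error 0.29) and in M vs. RE (1.63), but not in E vs. M (0.44), whose sign turned without the first E library (−0.046). *Per3* had 32.7 and 37.4 ppm in the E, 25.3 and 29.1 ppm in the M and 48.4 and 51.6 ppm in the RE libraries. Its stages did not overlap, with M lowest and RE highest, but no difference passed the fold threshold (−0.36 between E and M, 0.88 between M and RE and 0.51 between E and RE).

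The cryptochrome genes encode the partners of the PER proteins, and they diverged. *Cry1* was at 37.3 and 49.7 ppm in the E, 37.7 and 32.9 ppm in the M and 39.3 and 34.3 ppm in the RE libraries, and all stages overlapped, with log2 fold changes of −0.29 between E and M, 0.06 between M and RE and −0.23 between E and RE. *Cry2* was at 3.41 and 4.66 ppm in the E, 9.10 and 10.3 ppm in the M and 14.3 and 15.6 ppm in the RE libraries. Each stage lay above the one before it without overlap. Its log2 fold change was 1.26 in E vs. M (standard error 0.20, called), 0.62 in M vs. RE (not called) and 1.88 in E vs. RE (standard error 0.20, called), and the RE mean was 3.71 times the E mean.

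The REV-ERB genes were higher in both the M and the RE cells than in the E cells. *Nr1d1* coverage was 56.4 and 58.9 ppm in the E libraries, 190 and 219 ppm in the M libraries and 162 and 156 ppm in the RE libraries. *Nr1d2*, its paralogue, was at 37.5 and 36.7 ppm in the E, 82.2 and 88.8 ppm in the M and 76.9 and 74.0 ppm in the RE libraries. For both genes the stages did not overlap, with E lowest and M highest. *Nr1d1* was called higher by 1.82 in E vs. M (standard error 0.13) and by 1.46 in E vs. RE (standard error 0.13) on the log2 scale, and *Nr1d2* by 1.20 and by 1.02 (standard error 0.12 in each). Neither was called in M vs. RE (−0.36 and −0.18). In a newer annotation, *Nr1d1* shares 8.55% of its exon bases with *Thra*, a thyroid hormone receptor gene on the opposite strand. Whether the libraries kept the strand is not given in the sources used here, so those bases cannot be assigned. *Thra* itself was at 54.2 and 56.6 ppm in the E, 35.0 and 38.2 ppm in the M and 83.7 and 77.9 ppm in the RE libraries. It was lowest in M and highest in RE, and was called only in M vs. RE (1.14). The part of the *Nr1d1* coverage that came from *Thra* was not tested.

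The PAR bZIP genes of the output arm also differed from each other. *Tef* was at 18.8 and 19.6 ppm in the E, 31.7 and 32.7 ppm in the M and 42.7 and 44.3 ppm in the RE libraries, again without overlap between stages. It was called only in E vs. RE (log2 fold change 1.17, standard error 0.13), since the E vs. M (0.74) and M vs. RE (0.43) differences were below the fold threshold. *Dbp* was at 5.98 and 3.48 ppm in the E, 4.66 and 5.15 ppm in the M and 4.56 and 5.30 ppm in the RE libraries. The M and RE libraries lay between the E libraries. Its log2 fold changes were 0.10 between E and M, 0.01 between M and RE and 0.11 between E and RE, each with a standard error of 0.27, so that a change of moderate size was not detectable here. *Dbp* shares 18.01% of its annotated exon bases with *Sphk2*, a sphingosine kinase gene on the opposite strand that was at 26.1 to 35.8 ppm. *Sphk2* was thus above *Dbp* in every library. As for *Nr1d1* and *Thra*, the shared bases cannot be assigned, so the part of the *Dbp* coverage that came from *Sphk2* is not known. Among 10024 genes outside the lists that were expressed well enough to be ranked, the profile nearest to that of *Dbp* over the 6 libraries was that of *Polr2d*, an RNA polymerase II subunit gene (Pearson r = 0.98), followed by *6720456B07Rik*, *1110021J02Rik*, *Cenpc1* and *Hsph1* (r from 0.94 to 0.93). In each of these 5 genes, as in *Dbp*, the first E library was the highest and the second the lowest.

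The gene of the activator, *Arntl*, was at 40.1 and 61.4 ppm in the E, 67.7 and 67.7 ppm in the M and 75.4 and 65.9 ppm in the RE libraries. Every M and RE library lay above both E libraries. The differences were smaller than the fold threshold, at 0.45 between E and M, 0.06 between M and RE and 0.51 between E and RE on the log2 scale (standard error 0.20), and *Arntl* was not called in any comparison.

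**Figure D2:**
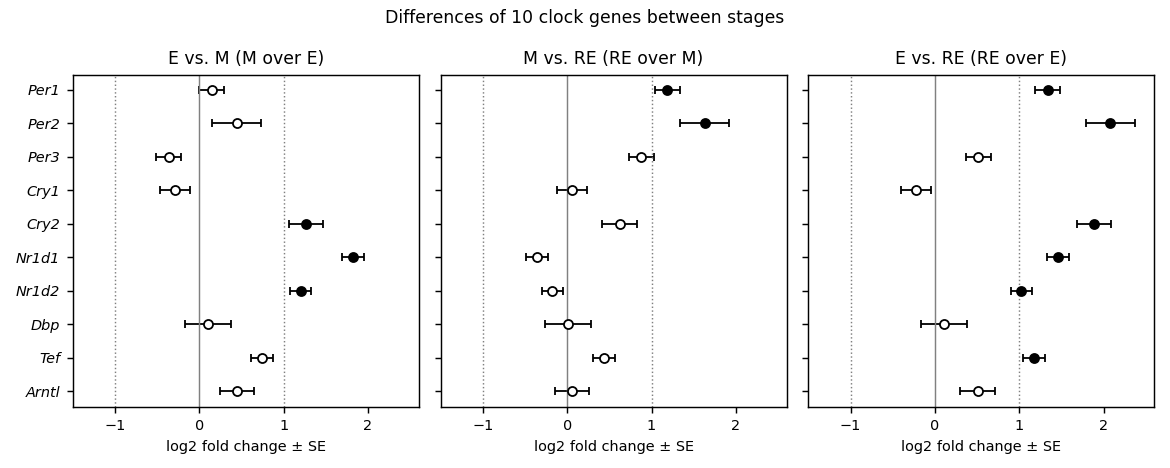
Log2 fold change (horizontal axes) of the 10 clock genes in the 3 comparisons, with its standard error from limma as bars. Filled points were called, open points were not, and dotted lines mark a log2 fold change of 1 in either direction. *Cry2*, *Nr1d1* and *Nr1d2* are filled in E vs. M, *Per1* and *Per2* in M vs. RE, and these 5 with *Tef* in E vs. RE.

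How far these calls hold depended on which library was left out and on the scaling. The calls in E vs. RE were kept without any single E or M library. Without the first or the second RE library, 0 of the 10 genes were called in E vs. RE, where 44 and 160 genes were called in all, although the log2 fold changes of the 6 genes kept their sign and ran from 0.995 (*Nr1d2*) to 2.57 (*Per2*) without any single library. In M vs. RE, *Per1* and *Per2* were both lost without the first M, the first RE or the second RE library, and *Per2* also without the second M library, with log2 fold changes from 1.03 to 1.35 for *Per1* and from 1.497 to 1.77 for *Per2*. In E vs. M, *Nr1d1* and *Nr1d2* were called without any single library, and *Cry2* was not called without either M library. Scaling the libraries by their totals alone moved the median of all genes to −0.29 in E vs. M and to 0.18 in M vs. RE on the log2 scale. On that scale *Cry2* and *Nr1d2* fell just short of the fold threshold in E vs. M (0.96 and 0.90) and only *Nr1d1* was called. *Nr1d2* was also not called in E vs. RE (0.93), and *Per3* was called in M vs. RE (1.08). When the third stage was kept out of the fit, *Cry2* was not called between E and M, nor *Per2* and *Nr1d2* between E and RE, and without a filter on low genes *Per2* was not called between M and RE.

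Coverage divided by transcript length allows levels to be compared between genes. On this scale *Nr1d1* was the most abundant of the 10 in all stages, with 21.2 ± 0.637 ppm per kb (SD, n = 2) in the E, 75.2 ± 7.55 in the M and 58.4 ± 1.74 in the RE cells. In the E cells it was followed by *Arntl* (17.1 ± 5.07), *Cry1* (14.4 ± 2.89) and *Per1* (13.9 ± 0.195), which overlapped, and *Cry2* was the lowest (1.01 ± 0.222). *Per2* (3.48 ± 1.62) overlapped *Tef* above it and *Dbp* below it. In the M cells *Arntl* (22.7 ± 0.00081) was second and *Nr1d2* (18.3 ± 0.998) next, and *Per3* and *Per2* overlapped, as did *Dbp* and *Cry2*. In the RE cells *Per1* (35.1 ± 1.62 ppm per kb) took the second place and *Per2* (13.9 ± 0.422) the fifth, *Dbp* (2.69 ± 0.285) was the lowest, and no neighbours in the order overlapped. The lengths are those of the longest protein-coding transcript in the newer annotation, so an isoform of another length would move a gene in this order.

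**Figure D3:**
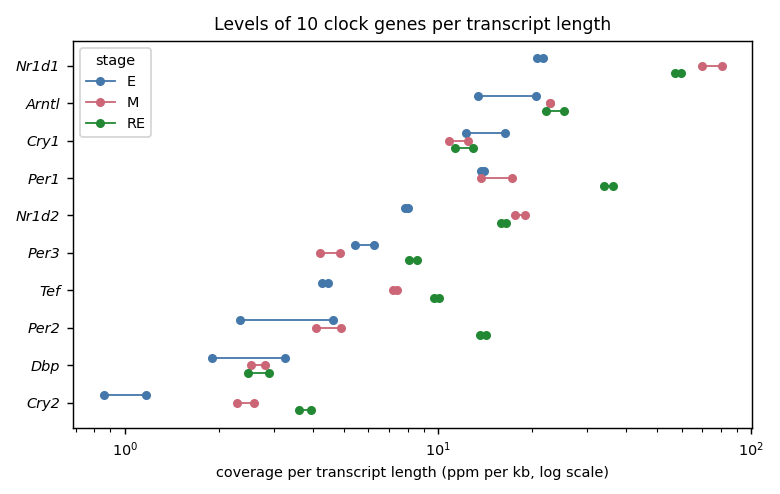
Coverage per transcript length in ppm per kb (horizontal log axis) of the 10 clock genes, in order of their mean in the E cells. Points are libraries, joined within a stage. *Nr1d1* is highest in every stage, and *Per1* and *Per2* stand to the right in RE alone.

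The rest of the clock was read from 3 lists of genes named for their roles, with 40 genes, of which 38 were tested. These lists, and those of the inducible genes below, were also chosen with earlier results of these libraries known. Their adjusted p-values therefore describe the fit and are no independent support. The M cells had 3 called higher and 5 lower than E, beside 8.58% and 8.39% of all genes tested. The RE cells had 7 higher and 2 lower than M, beside 8.08% and 4.79%. Against E, they had 5 higher and 2 lower, beside 6.2% and 3.17%. The medians of these comparisons were 0.00, −0.05 and 0.13 on the log2 scale. Altogether 14 of these genes were called in at least 1 comparison. The matching share of all genes was not counted, so the 14 only tell which genes could be named. The list of other core and secondary loop genes had 10 tested. Of these, 2 were called higher and 4 lower in E vs. M, 4 higher and 1 lower in M vs. RE, and 2 higher and 1 lower in E vs. RE. The shares of all genes just given stand beside these counts.

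In that list of 12 genes, *Npas2* and *Rorb* were too low to be tested. *Rora*, an activator of *Arntl*, was at 4.34 and 5.55 ppm in the E, 1.69 and 2.01 ppm in the M and 6.85 and 6.81 ppm in the RE libraries, lowest in M without overlap. It fell by 1.37 between E and M (adjusted p = 0.00211, limma) and rose by 1.83 in M vs. RE (adjusted p = 0.000696). *Bhlhe40*, whose product DEC1 represses through E-boxes, had the opposite course, with 175 and 184 ppm in the E, 577 and 538 ppm in the M and 198 and 200 ppm in the RE libraries. It rose by 1.64 between E and M (adjusted p = 7.96e-05, limma) and fell by 1.49 in M vs. RE (adjusted p = 0.000137). Its paralogue *Bhlhe41*, encoding DEC2, was instead highest in the RE cells (20.2 and 23.9 ppm, against 8.49 and 4.26 in E and 4.56 and 6.44 in M), with log2 fold changes of 2.00 in M vs. RE (adjusted p = 0.00339 by limma) and 1.85 in E vs. RE (adjusted p = 0.00626).

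*Hlf*, the third PAR bZIP gene, had the widest range of the clock genes tested. It was at 10.7 and 12.5 ppm in the E libraries, 0.284 and 0.337 ppm in the M libraries and 35.1 and 46.0 ppm in the RE libraries. It fell by 4.83 on the log2 scale between E and M (standard error 0.21, adjusted p = 1.07e-05, limma), whereas the RE cells were above both the M cells (6.62, adjusted p = 7.05e-06) and the E cells (1.78, adjusted p = 0.00138). *Hlf* thus passed through a trough in the M cells that *Tef* and *Dbp* did not show. *Ciart*, listed in the table under its older symbol *Gm129*, was at 14.6 and 28.0 ppm in the E, 6.26 and 6.06 ppm in the M and 5.16 and 5.95 ppm in the RE libraries. It fell by 1.70 between E and M (adjusted p = 0.00325, limma) and stayed lower in E vs. RE (−1.85, adjusted p = 0.00402). *Arntl2*, the paralogue of *Arntl*, was higher in M than in E (1.06, adjusted p = 0.00234, limma). *Clock* was looked up after the values were seen, as the partner of *Arntl*, and had 24.8 and 60.0 ppm in the E, 112 and 123 ppm in the M and 139 and 113 ppm in the RE libraries. Its unequal E libraries left it not called in E vs. M (1.60, adjusted p = 0.0101, limma) and in E vs. RE (1.69, adjusted p = 0.012).

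**Figure D4:**
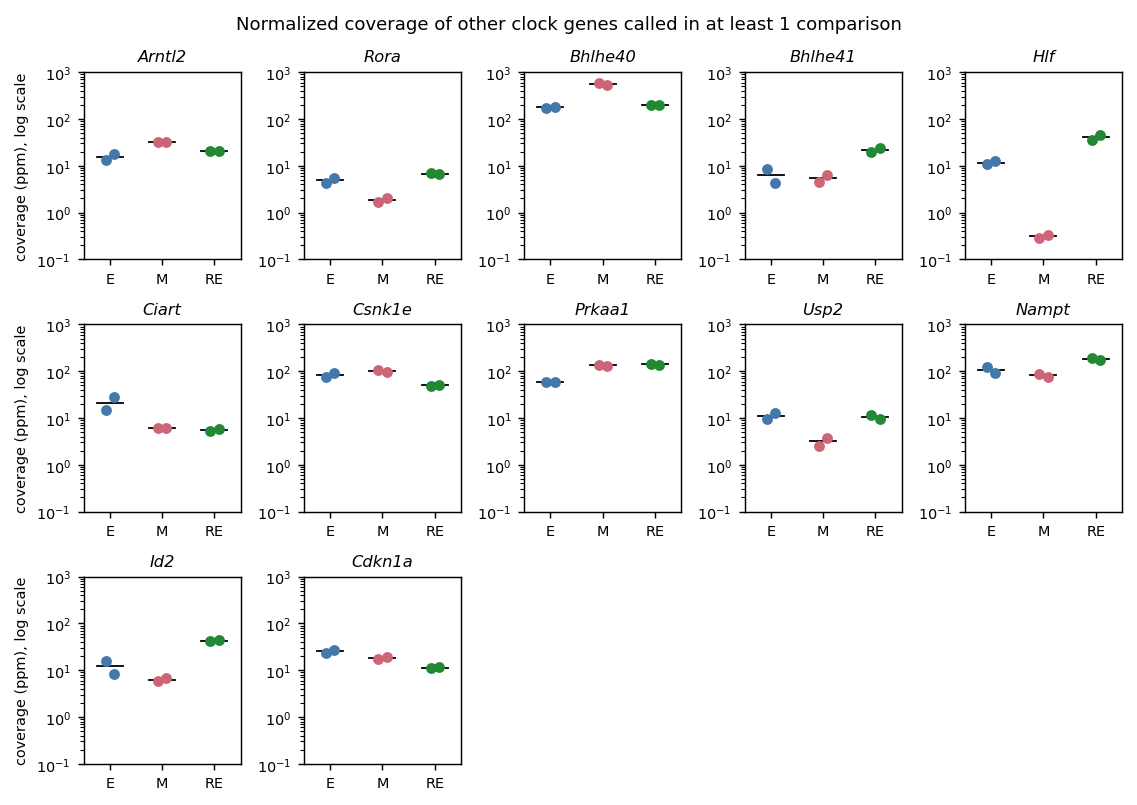
Normalized coverage in ppm (vertical log axes) of 12 other clock genes called in at least 1 comparison, in the 2 libraries of each stage. Points are libraries and bars are means. *Hlf*, *Rora* and *Usp2* are lowest in M, *Bhlhe40* is highest there, and *Bhlhe41* and *Id2* are highest in RE.

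Of 18 genes acting on clock proteins after translation, 1 was called higher in E vs. M, 1 lower in M vs. RE and 2 higher in E vs. RE, where 8.58%, 4.79% and 6.2% of all genes tested were called in those directions. *Prkaa1*, a catalytic subunit of AMPK, which phosphorylates CRY1, was at 60.2 and 59.5 ppm in the E, 138 and 129 ppm in the M and 143 and 138 ppm in the RE libraries (1.16 between E and M, adjusted p = 0.000351, and 1.23 between E and RE, adjusted p = 0.000766, limma). *Csnk1e*, a kinase gene for PER proteins, was lower in RE than in M (−1.02, adjusted p = 0.00152 by limma). Among 10 output genes that cycle in many tissues or carry known clock control, *Usp2*, a deubiquitinase gene, was at 9.53 and 12.7 ppm in the E, 2.56 and 3.82 ppm in the M and 11.6 and 9.55 ppm in the RE libraries. It fell by 1.79 between E and M (adjusted p = 0.00139, limma) and rose by 1.72 in M vs. RE (adjusted p = 0.00209). *Id2*, which also responds to BMP signalling, rose by 2.74 in M vs. RE (adjusted p = 0.000337 by limma) and was above E in the RE cells (1.88, adjusted p = 0.00315), and *Nampt*, for an enzyme of NAD synthesis, rose by 1.19 in M vs. RE (adjusted p = 0.00279). *Cdkn1a*, encoding the cell cycle inhibitor p21, was lower in RE than in E (−1.16, adjusted p = 0.00208 by limma). Of the genes named here, *Bhlhe40* and *Hlf* were called in E vs. M without any single library, as were *Bhlhe40*, *Hlf* and *Id2* in M vs. RE, while each of the other calls was lost without at least 1 library. Scaling by library totals ended those of *Arntl2* and *Prkaa1* in E vs. M, *Csnk1e* in M vs. RE, and *Bhlhe41* in E vs. RE. Keeping the third stage out of the fit ended those of *Arntl2*, *Rora* and *Ciart* between E and M, and of *Ciart*, *Bhlhe41*, *Cdkn1a* and *Id2* between E and RE.

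*Per1* and *Per2* are also known to respond directly to serum, cAMP and glucocorticoids, so genes with the same inducers were read beside them. Of 13 immediate-early genes, limma called 0 higher and 8 lower in M than in E, beside 8.58% and 8.39% of all genes tested. In RE, 8 were called higher and 0 lower than in M, beside 8.08% and 4.79% of all genes. Against E, the RE cells had 2 higher and 3 lower, beside 6.2% and 3.17%. The medians of these comparisons were −1.20, 1.59 and 0.19. Higher in RE than in E were *Egr2* (1.02, adjusted p = 0.00368 by limma) and *Nr4a2* (1.62, adjusted p = 0.000581), and lower were *Fos* (−1.74, adjusted p = 0.00124), *Fosb* (−2.75, adjusted p = 0.000488) and *Atf3* (−1.55, adjusted p = 0.00679). Of 8 glucocorticoid-responsive genes in the table, limma called 0 higher in RE than in E and only *Mt2*, a metallothionein gene, lower (−1.54, adjusted p = 0.00321). An unadjusted p below 0.05 by limma, in either direction, was found for 6 of the 8. The share of all genes with such a p was not counted, so the 6 say nothing about the list as a set. The other comparisons of this list had 1 called higher and 3 lower in M than in E. In RE, 2 were higher and 1 lower than in M. The shares of all genes given for the immediate-early list stand beside these counts too. Keeping the M stage out of the fit ended the E vs. RE calls of *Egr2* and *Atf3*, as did library totals (0.92) and a pseudocount of 1 (0.98) for *Egr2* and the lack of a filter for *Atf3*. Each of the 6 inducible genes called in E vs. RE was lost without at least 1 RE library. The part of these inducers in the *Per1* and *Per2* differences was not tested.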

How the data were processed

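Whole-transcriptome libraries of E, M and RE cells were sequenced (2 each). The authors mapped unique reads to NCBI m37 with Bowtie and TopHat2 and deposited 1 table of whole numbers per gene. Between 44.8% and 48.4% of the values from 1 to 400 are multiples of 50, so the deposited values were read as coverage (signal) in bases, without normalization. The step that summed them and its annotation are not given in the sources used here. Read-count tests were therefore not used.

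Coverage was scaled by unweighted TMM to ppm, in R 4.3.3. The 13893 genes that reached 500 bases in 2 or more libraries were fitted with limma 3.58.1 on log2(ppm + 0.1), which understates changes of low genes, using all 6 libraries, group only, with a trend on mean expression and Benjamini-Hochberg adjustment over all genes of a comparison. Libraries of a stage were labelled biological replicates, and p-values measure their spread only. The fit was tested on simulated data for E vs. M with 13817 genes. Of 200 genes set apart by a log2 difference of 2, 73.5% were recovered, and 4 unchanged genes were called. The simulated spread was normal, came from limma's own fit and was the same in all stages. The result thus does not show how the wider spread of the real E libraries (SD 0.558, against 0.318 for M) acts.

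The members and lists were chosen with earlier results of these data, and the paper's figures, known. Likeness to *Dbp* was Pearson's r over the libraries, among genes with an average log2 value of 2 or more. Named genes are the members, other clock genes called in at least 1 comparison (2 of the 14 are not reported here by name, though they stay in the counts), inducible genes called in E vs. RE, and the 5 nearest to *Dbp*. Older symbols were matched for *Bhlhe40*, *Ciart*, *Epcam* and *Plin1*. *Zbtb16* and *Cebpd* were not analysed here, nor were protein identities. Transcript lengths and exon overlaps came from GENCODE M21.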

Additional observations from a re-analysis of the deposited data

How the results depend on the processing

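The replicate numbers are shared by the stages, but deviations from the stage mean of same-numbered libraries correlated at only 0.267 (E and M), 0.058 (E and RE) and 0.116 (M and RE), so the libraries share a number and no shown pairing. With the replicate number as a block, 2431, 1830 and 1284 genes were called in E vs. M, M vs. RE and E vs. RE, against 2358, 1789 and 1302 without it, and the members called stayed at 3, 2 and 6. When the fit held just the 2 groups of a comparison, 1798 genes were called between E and M, 2327 between M and RE and 525 between E and RE. The E vs. M and E vs. RE counts thus fell and the M vs. RE count rose. Other clock genes called numbered 5 between E and M and 2 between E and RE. The cause was not tested. With library totals only, 1 member was called in E vs. M, the share of called genes that were higher went from 50.6% to 30.5% between E and M and from 62.8% to 73.8% between M and RE, and the uncalled differences of *Per1* (−0.15) and *Dbp* (−0.20) in E vs. M and of *Nr1d2* in M vs. RE (0.0257) changed sign. Without a filter, 1 member was called in M vs. RE. In the 150 bases before the start, 0 members held the D-box and 0 the ROR core, which lie outside that window.

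Leaving out each library in turn, which removes samples from a small design, gave 945 to 3362 genes called in E vs. M, 683 to 2337 in M vs. RE and 44 to 2348 in E vs. RE. In the same order, members called numbered 2 to 3, 0 to 2 and 0 to 6, other clock genes 3 to 11, 4 to 9 and 0 to 10, and the inducible genes 6 to 12, 7 to 12 and 0 to 8. Uncalled log2 fold changes that changed sign were those of *Per1* (−0.0144 to 0.31), *Per2* (−0.046 to 0.91) and *Dbp* (−0.30 to 0.48) in E vs. M, of *Dbp* (−0.10 to 0.11), *Cry1* (−0.0368 to 0.16) and *Arntl* (−0.0373 to 0.16) in M vs. RE, and of *Dbp* (−0.27 to 0.49) in E vs. RE. A stage left with 1 library is assumed to vary like the others.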
